A study of Mus musculus with 6 samples.

Results

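Troponin is the calcium switch of striated muscle, and its 8 genes Tnnt1, Tnnt2, Tnnt3, Tnni1, Tnni2, Tnni3, Tnnc1 and Tnnc2 were followed here in C2C12 cells, a mouse myoblast line. They were taken by name as the troponin T, I and C genes of slow, fast and cardiac type, and all 8 were measured among 22180 genes. Each was represented by 1 probe set, whose probes are combined into a single value per array. The samples were 3 arrays of cells transfected with pooled small interfering RNA (siRNA) to Htt, the gene of huntingtin, and 3 arrays of cells transfected with scramble siRNA, with no other treatment or allele named in the labels. The titles write KO for the first group although its protocol is one of siRNA transfection, and it is named Htt siRNA here. Nothing states that replicates were separate cultures, so a p-value covers only the spread of these arrays, possibly a technical one. The sources used here do not give the time after transfection, the confluence or the serum at harvest. By its title the study asks about huntingtin in muscle differentiation in culture.

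A troponin complex holds 1 subunit of each kind. Troponin C binds calcium, troponin I inhibits the actin and myosin interaction, and troponin T ties both to tropomyosin on the thin filament. Troponin T and troponin I each have isoforms for fast fibres, slow fibres and the heart. Troponin C has a fast form and 1 form shared by slow fibres and the heart. Embryonic and regenerating skeletal muscle also uses the cardiac T isoform. Proliferating C2C12 myoblasts hold little of these proteins, and the genes are switched on when the cells leave the cell cycle and form myotubes.

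In mice the troponin T and I genes lie in linked pairs, 1 T gene beside 1 I gene. In a RefSeq gene table of GRCm38.p6, Tnnt1 and Tnni3 are direct neighbours among protein-coding genes, while 1 gene (Lad1) lies between Tnnt2 and Tnni1 and 1 gene (Lsp1) between Tnnt3 and Tnni2. The troponin C genes Tnnc1 and Tnnc2 have no such partner. Promoter windows from RefSeq on GRCm38.p6, reaching from 250 bases before to 50 bases after a gene's start, were found by symbol for 6 of the 8 genes, in 8 windows; Tnnt3 and Tnni2 had none. The printed windows are those of the gene with the largest difference among those with a window (Tnnc2), of the slow I gene (Tnni1, the first of 2 windows), of the cardiac T gene that skeletal muscle also uses (Tnnt2, the first of 2 windows) and of the gene that did not pass the test (Tnni3). They run 5′ to 3′ along the gene, and capitals mark the E-box CANNTG, the motif bound by MyoD and myogenin, and the M-CAT motif CATTCC on either strand, the motif bound by TEAD factors and first worked out in the chicken cardiac troponin T promoter.

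Tnnc2 (chr2:164779685-164779984, minus strand): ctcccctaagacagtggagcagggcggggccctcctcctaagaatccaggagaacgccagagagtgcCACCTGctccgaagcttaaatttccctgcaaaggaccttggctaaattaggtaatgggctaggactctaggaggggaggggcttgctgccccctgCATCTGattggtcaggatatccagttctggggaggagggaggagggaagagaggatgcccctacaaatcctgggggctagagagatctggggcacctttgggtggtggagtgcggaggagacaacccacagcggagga
Tnni1 (chr1:135799171-135799470, plus strand): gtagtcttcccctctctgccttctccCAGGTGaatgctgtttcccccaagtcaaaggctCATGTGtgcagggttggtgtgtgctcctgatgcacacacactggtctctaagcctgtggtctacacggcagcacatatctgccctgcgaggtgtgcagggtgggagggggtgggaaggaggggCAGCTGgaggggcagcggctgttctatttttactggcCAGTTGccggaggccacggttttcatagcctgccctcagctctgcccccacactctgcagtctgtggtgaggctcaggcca
Tnnt2 (chr1:135836084-135836383, plus strand): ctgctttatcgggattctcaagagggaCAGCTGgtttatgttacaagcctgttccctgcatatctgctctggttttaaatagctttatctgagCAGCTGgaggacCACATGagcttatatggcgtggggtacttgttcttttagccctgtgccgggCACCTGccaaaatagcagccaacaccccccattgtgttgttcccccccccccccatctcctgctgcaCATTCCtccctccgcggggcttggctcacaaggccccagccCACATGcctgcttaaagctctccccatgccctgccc
Tnni3 (chr7:4522479-4522778, minus strand): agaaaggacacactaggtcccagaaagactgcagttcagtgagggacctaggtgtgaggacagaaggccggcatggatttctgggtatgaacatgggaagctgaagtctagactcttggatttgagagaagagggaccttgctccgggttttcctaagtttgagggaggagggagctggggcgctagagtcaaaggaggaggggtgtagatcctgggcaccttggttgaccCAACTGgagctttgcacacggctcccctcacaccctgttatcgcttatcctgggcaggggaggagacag

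E-boxes were found in all 8 troponin windows, which come from 6 genes, against 72.3% of all 32851 windows of this length. The 2 Tnni1 windows overlap and share a CAGCTG and a CAGTTG match, so the 8 windows are not independent. The Tnnt2 window held 5, the Tnni1 window 4, the Tnnc2 window 2 and the Tnni3 window 1, and the window of Tnnt1 and that of Tnnc1 held 2 each. M-CAT matches were present in the first Tnnt2 window, at position -27 from the start site, and in the Tnnc1 window, as its reverse complement at position -58; 14.7% of all windows held one. No 2 matches of these motifs overlapped in the printed windows. Matches to the MEF2 consensus (3.19% of all windows) and to the CArG box of serum response factor (1.63%) were found in 0 of the 8 windows. The TATA box letters TATAAA, searched on both strands, were in the Tnnt1 window, at position -30, against 13.6% of all windows. A match describes letters only, and no binding was measured in these samples.

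Expression is given as deposited log2 values from RMA, a method that corrects background, makes the arrays' distributions equal and summarises probes. All differences are Htt siRNA minus scramble on that log2 scale, followed by the standard error of limma, a linear model fitted across all genes with pooled spread. Htt itself was at 4.49, 4.47 and 4.65 in the Htt siRNA arrays, against 5.59, 5.60 and 5.72 in the scramble arrays, a difference of -1.10 ± 0.09 that left 46.6% of the scramble level. The myoblast marker list averaged 7.46 to 7.52 in Htt siRNA arrays and 7.11 to 7.39 in scramble arrays, where the median of all gene means was 2.95; Des, the muscle intermediate filament, averaged 10.30 in Htt siRNA arrays and 10.10 in scramble arrays, while Pax7, a satellite cell factor, averaged 3.18 in Htt siRNA arrays and 3.25 in scramble arrays, near that median. The table has no detection calls. Htt siRNA replicate 2 stood apart from the other Htt siRNA arrays: a list of 11 measured cell division genes was at 5.84, 7.29 and 6.16 in Htt siRNA replicates 1, 2 and 3, against 7.14, 7.75 and 7.53 in scramble replicates 1, 2 and 3. A list of 10 stress response genes was at 8.29, 6.25 and 8.46 in the Htt siRNA arrays and at 8.57, 6.32 and 7.01 in the scramble arrays, which divided the arrays across both groups. In both lists scramble replicate 2 stood at the same end of its group as Htt siRNA replicate 2 did. Both lists were picked with their values known, and results are also given without Htt siRNA replicate 2.

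Troponin genes lay higher after Htt siRNA, with 1 exception. Limma gave an unadjusted p under 0.05 with a higher value for 7 of the 8 genes, with a lower value for 0, and Tnni3 did not pass; among all 22180 genes 5.72% passed upwards and 5.14% downwards. The family and the gene lists below were chosen with earlier results of these data known, so such counts are descriptive only. The log2 differences of the 7 genes ran from 0.68 for Tnnt2 to 1.84 for Tnnt3, and the median of the 8 was 0.78, against 0.03 for all genes. In 5 genes each Htt siRNA array was above each scramble array, where 10.1% of all genes showed such a gap upwards. At least 2-fold higher values were found for 3 of the 8, Tnnt3, Tnnc2 and Tnni1, against 0.144% of all genes. In a culture measured in bulk, more cells that express a gene and more RNA per cell cannot be told apart.

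After adjustment over all genes by the Benjamini-Hochberg method, limma called 0 of the 8 troponin genes, and 0.0% of all genes; 2409 genes had an unadjusted p under 0.05. The number called was different when Htt siRNA replicate 2 was left out. That array was the lowest Htt siRNA array in 7 of the 8 genes, so leaving it out could only raise their differences. Without it, the differences of the 7 genes ran from 0.79 to 2.31 and 5 troponin genes passed upwards, namely Tnnt3 (adjusted p = 0.00778), Tnni1 (adjusted p = 0.0178), Tnnc2 (adjusted p = 0.0259), Tnni2 (adjusted p = 0.033) and Tnnt1 (adjusted p = 0.0473), against 0.528% of all genes. Tnnc1 (adjusted p = 0.06) and Tnnt2 (adjusted p = 0.076) were then close to the threshold. Leaving out any other array gave 0 called troponin genes in limma. The fit without Htt siRNA replicate 2 kept scramble replicate 2, whose troponin mean was the lowest of its group (3.86). That removal was thus unbalanced, and no fit left out both arrays.

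**Figure D1:**
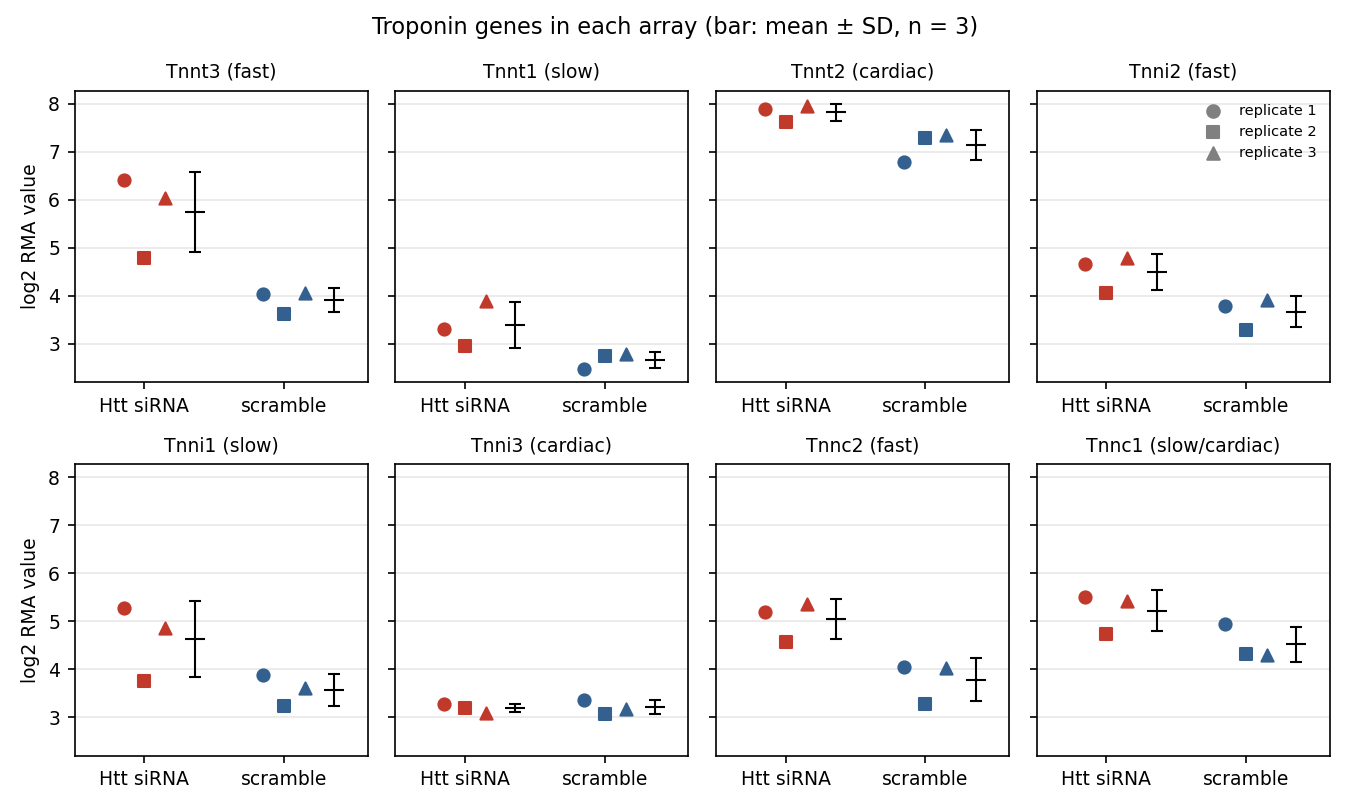
Log2 RMA values of the 8 troponin genes in each array (symbols are replicates; black marks show the mean ± SD of 3 arrays). The groups do not overlap for Tnnt3, Tnnt1, Tnnt2, Tnni2 and Tnnc2, and Tnni3 lies at about 3.2 in both groups.

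The troponin T genes, whose products anchor the complex to tropomyosin, all had higher values. Tnnt3, the fast skeletal isoform, was at 6.41, 4.80 and 6.03 in Htt siRNA replicates 1, 2 and 3, against 4.03, 3.62 and 4.07 in scramble replicates 1, 2 and 3. Replicate 2 was the lowest of the Htt siRNA arrays, yet it lay above every scramble array. The difference was 1.84 ± 0.37, a 3.58-fold higher value with a 95% interval of 0.98 to 2.70 on the log2 scale (limma, unadjusted p = 0.00122, adjusted p = 0.242). Of all genes, 5 had a larger log2 fold change.

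Tnnt2, the cardiac isoform that embryonic skeletal muscle also makes, was already bright on these arrays. Its values were 7.89, 7.62 and 7.96 in Htt siRNA arrays and 6.78, 7.28 and 7.36 in scramble arrays. The groups did not overlap, and scramble replicate 1 was the lowest array. The difference was 0.68 ± 0.17, or 1.61-fold (limma, unadjusted p = 0.00404, adjusted p = 0.31).

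Tnnt1, the slow skeletal isoform, was dim, with 3.32, 2.95 and 3.90 in Htt siRNA arrays and 2.48, 2.74 and 2.79 in scramble arrays. Htt siRNA replicate 3 was the highest array and replicate 2 lay only slightly above the scramble arrays. Its difference was 0.72 ± 0.22, or 1.65-fold (limma, unadjusted p = 0.0124, adjusted p = 0.382). The difference was 0.47 when Htt siRNA replicate 3 was left out. With a mean of 3.03 over the 6 arrays Tnnt1 sat near the median of all genes, 2.95, where RMA compresses differences, so the fold may be understated. Its scramble values were all below that median and, without detection calls, may also be background.

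The inhibitory troponin I genes were unequal. Tnni2, the fast isoform, was at 4.66, 4.07 and 4.78 in Htt siRNA arrays, against 3.79, 3.30 and 3.91 in scramble arrays. All Htt siRNA arrays were above all scramble arrays. The difference was 0.84 ± 0.22, or 1.79-fold (limma, unadjusted p = 0.00566, adjusted p = 0.329).

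Tnni1, the slow isoform and the form that predominates in embryonic skeletal muscle, was at 5.27, 3.76 and 4.87 in Htt siRNA arrays and at 3.88, 3.23 and 3.61 in scramble arrays. Here the groups overlapped, because scramble replicate 1 exceeded Htt siRNA replicate 2. The difference was 1.06 ± 0.36, or 2.08-fold (limma, unadjusted p = 0.0193, adjusted p = 0.398). Its unadjusted limma p was 0.0653 and 0.0664 when Htt siRNA replicate 1 or replicate 3 was left out and 0.0667 when scramble replicate 2 was. The difference was 0.74, 1.49 and 0.94 when Htt siRNA replicate 1, 2 or 3 was left out and 0.89 when scramble replicate 2 was, so the value stayed under 2-fold in 3 of these fits.

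Tnni3, the cardiac isoform, was the exception. It stood at 3.28, 3.20 and 3.10 in Htt siRNA arrays, against 3.37, 3.08 and 3.18 in scramble arrays, with the groups intermixed. The difference was -0.02 ± 0.10, with a 95% interval of -0.26 to 0.22 (limma, unadjusted p = 0.863, adjusted p = 0.963). Its sign turned when Htt siRNA replicate 3 (0.03) or scramble replicate 1 (0.06) was left out. Because its probe set was nearly as dim as the median gene, a small change of this gene may not be visible on these arrays.

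The calcium-binding troponin C genes also lay higher. Tnnc2, the fast skeletal form, was at 5.19, 4.57 and 5.37 in Htt siRNA arrays and at 4.06, 3.27 and 4.02 in scramble arrays, without overlap. It had the second largest difference of the family, 1.26 ± 0.26 or 2.39-fold (limma, unadjusted p = 0.00156, adjusted p = 0.261), and 15 of all genes had a larger one. Scramble replicate 2 was clearly the lowest array for this gene, and without it the difference was 1.00.

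Tnnc1, the form shared by slow fibres and the heart, was at 5.51, 4.74 and 5.42 in Htt siRNA arrays, against 4.94, 4.33 and 4.30 in scramble arrays. Htt siRNA replicate 2 lay below scramble replicate 1, so the groups overlapped. The difference was 0.70 ± 0.24, or 1.62-fold (limma, unadjusted p = 0.021, adjusted p = 0.398). Its unadjusted limma p was 0.0762 and 0.0735 when Htt siRNA replicate 1 or replicate 3 was left out, and 0.0695 and 0.0734 when scramble replicate 2 or replicate 3 was.

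**Figure D2:**
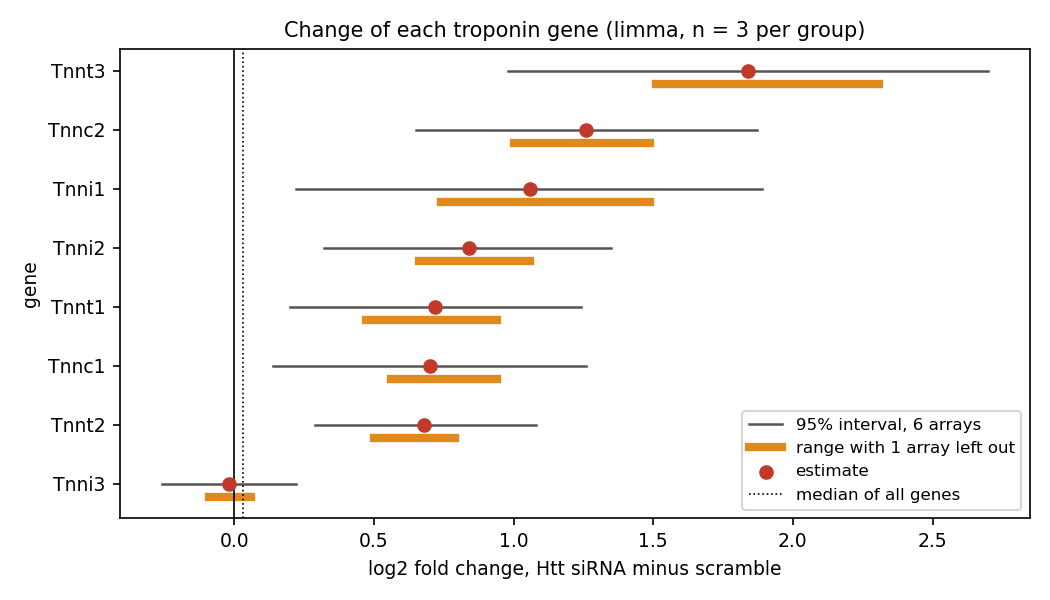
Log2 fold change of each troponin gene (red points), its 95% interval over 6 arrays (grey) and its range when 1 array was left out (orange); the dotted line is the median of all genes, 0.03. Intervals of 7 genes lie above 0, and that of Tnni3 spans -0.26 to 0.22.

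**Figure D3:**
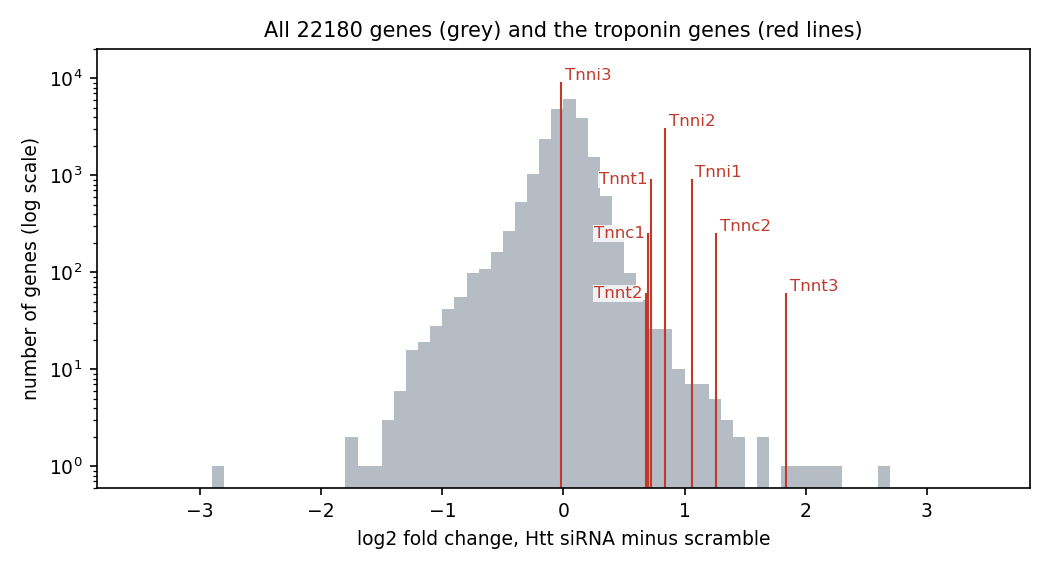
Histogram of the log2 fold changes of all 22180 genes (horizontal axis, Htt siRNA minus scramble; vertical axis, number of genes on a log scale), with red lines of arbitrary height at the troponin genes. Tnnt3 at 1.84 has 5 genes to its right and Tnnt2 at 0.68 has 101.

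The place of Htt siRNA replicate 2 was shared by most members, while the full order of the arrays differed. In 7 of the 8 genes Htt siRNA replicate 2 was the lowest Htt siRNA array, the exception being Tnni3, and in those same 7 genes the highest array of all was Htt siRNA replicate 1 (Tnnt3, Tnni1 and Tnnc1) or replicate 3 (Tnnt1, Tnnt2, Tnni2 and Tnnc2). Scramble replicate 2 was the lowest of all arrays in 5 genes. The mean of the 8 genes was 5.19, 4.46 and 5.18 in Htt siRNA replicates 1, 2 and 3, against 4.17, 3.86 and 4.15 in scramble replicates 1, 2 and 3. Relative to the scramble mean, Htt was at -1.14, -1.17 and -0.99 in Htt siRNA replicates 1, 2 and 3. Whether the Htt level bears on the troponin values of single arrays was not tested. The cell division list had its highest Htt siRNA value in replicate 2, and its highest scramble value in replicate 2, the arrays where the troponin mean was lowest in each group; its part in the troponin differences was not tested.

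**Figure D4:**
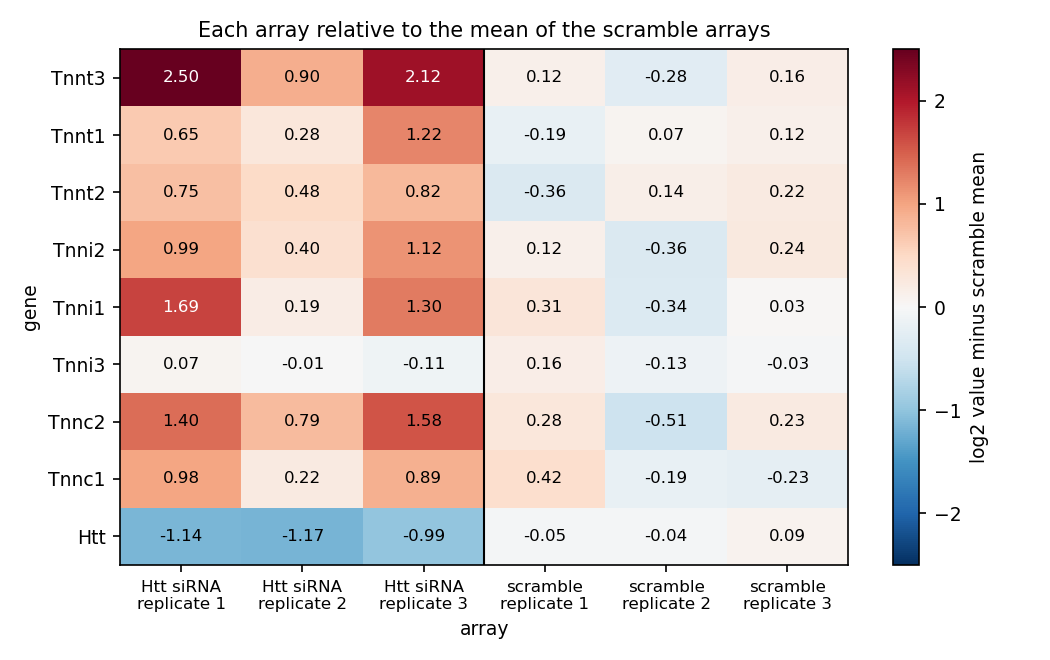
Log2 value of each gene (rows) in each array (columns) minus the mean of the 3 scramble arrays, as colour and number. Htt siRNA replicate 2 is paler than replicates 1 and 3 for 7 troponin genes, and Htt is at -1.17 there.

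Fast isoforms were compared with their slow or cardiac counterparts by the difference of log2 values within each array, set to a scramble mean of 0, and this difference is given without a test. For troponin T, fast Tnnt3 gained on slow Tnnt1 by 1.85, 0.62 and 0.90 in Htt siRNA replicates 1, 2 and 3, against 0.31, -0.36 and 0.05 in the scramble arrays, without overlap. Against cardiac Tnnt2 the gain of Tnnt3 was 1.75, 0.42 and 1.30, against 0.48, -0.43 and -0.06 in scramble arrays, and here Htt siRNA replicate 2 was below scramble replicate 1. For troponin I, fast Tnni2 relative to slow Tnni1 was at -0.70, 0.21 and -0.18 in Htt siRNA arrays and at -0.19, -0.02 and 0.21 in scramble arrays, which overlapped. Relative to cardiac Tnni3 it was at 0.92, 0.41 and 1.23, against -0.04, -0.23 and 0.27 in scramble arrays, without overlap. For troponin C, fast Tnnc2 relative to Tnnc1 was at 0.42, 0.57 and 0.69, against -0.14, -0.32 and 0.46 in scramble arrays, which overlapped. Probe sets differ in how far they compress a change, so these gains compare the arrays and not the true ratio of isoforms.

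For the linked T and I genes the differences are set side by side, without a test between them. In the pair Tnnt3 and Tnni2, both fast, the differences were 1.84 ± 0.37 and 0.84 ± 0.22. In the pair Tnnt2 and Tnni1 they were 0.68 ± 0.17 and 1.06 ± 0.36. In the pair Tnnt1 and Tnni3, whose genes are direct neighbours, they were 0.72 ± 0.22 and -0.02 ± 0.10.

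The genes with the nearest profiles to a troponin gene were found by the root mean square difference of log2 values over the 6 arrays, each gene centred on its own mean, for the 3 members with a log2 difference of at least 1. Nearest to Tnnt3 were Actc1, the cardiac actin of embryonic skeletal muscle (0.24), Dcn, the proteoglycan decorin (0.26), and Mymk, the fusion protein myomaker (0.27). Tnni1 was followed most closely by Myom2, an M-band protein (0.08), which was at 5.39, 3.86 and 4.81 in Htt siRNA arrays and at 3.92, 3.26 and 3.52 in scramble arrays, and then by Fibin and Gpr155 (0.18 each). For Tnnc2 they were the matricellular protein gene Ccn3 (0.14), the muscle carbonic anhydrase gene Car3 (0.15) and Postn, the matrix protein periostin (0.17). Among troponin genes themselves the closest pair was Tnnt1 and Tnnt2 (0.20), and Tnnt3 and Tnni3 were farthest apart (1.05). These distances describe 6 arrays in 2 groups, so genes with a like difference between groups are near each other.

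**Figure D5:**
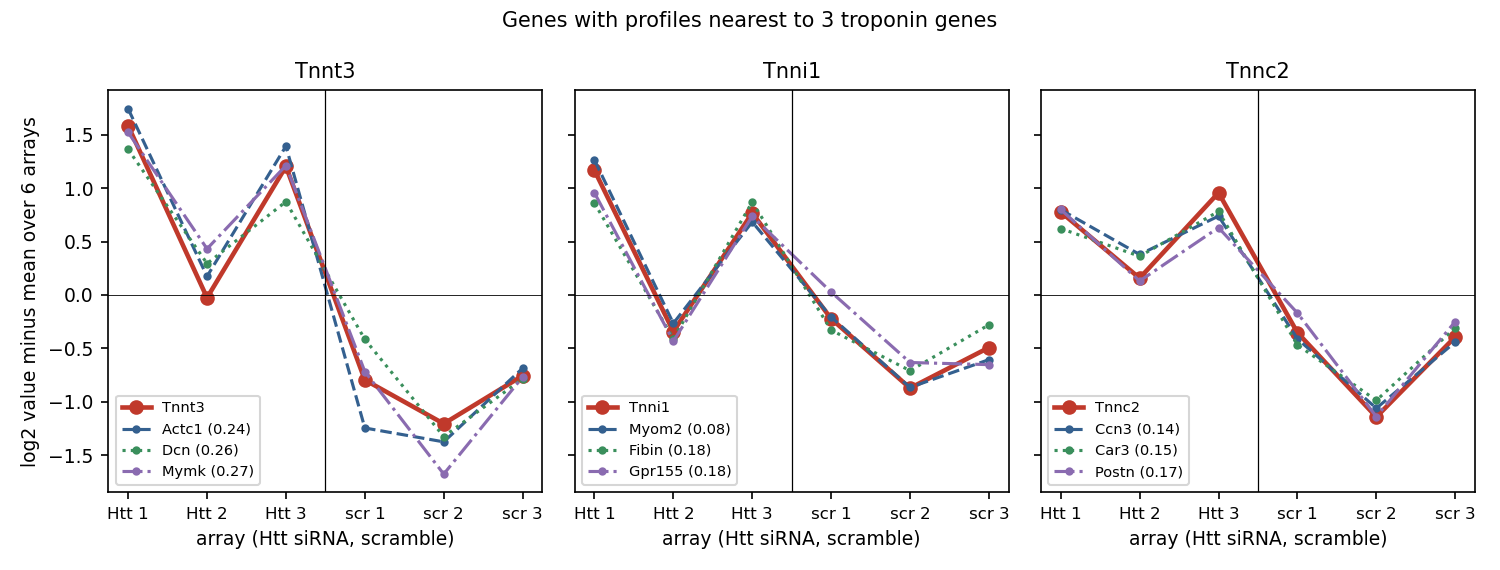
Log2 values minus each gene's mean over the 6 arrays for Tnnt3, Tnni1 and Tnnc2 (red) and the 3 genes with the smallest root mean square difference to each (broken lines, value in brackets). All profiles dip at Htt siRNA replicate 2 and are lowest at scramble replicate 2, or at scramble replicate 3 for Gpr155.

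Genes of the thin filament and its associated proteins also had more higher than lower values. Of 20 thin filament genes, limma gave 9 an unadjusted p under 0.05 with a higher value and 0 with a lower value, against 5.72% of all genes upwards, and their median was 0.21. Of the tropomyosin genes, whose products bind troponin T, Tpm2 passed that threshold with a difference of 0.54 ± 0.14. Tpm1 (0.17 ± 0.11), Tpm3 (-0.18 ± 0.12) and Tpm4 (0.0 ± 0.09) did not pass. Acta1, skeletal actin, differed by 1.35 ± 0.23, Actc1 by 2.21 ± 0.38 and Neb, the thin filament ruler nebulin, by 1.25 ± 0.21, with limma adjusted p of 0.174, 0.174 and 0.181 for Acta1, Neb and Actc1. Of 20 measured thick filament genes, 6 were higher at that unadjusted threshold and 0 lower, with a median of 0.19. Those with the smallest p were the light chains Myl1 (0.84 ± 0.20) and Mylpf (2.07 ± 0.50) and embryonic myosin Myh3 (0.58 ± 0.15).

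Lists of fast, slow and cardiac genes outside the troponin family gave close counts. Over all genes 5.72% were higher and 5.14% lower at an unadjusted limma p under 0.05, with a median of 0.03. In the fast list, 5 of 15 were higher at an unadjusted limma p under 0.05, 0 lower, with a median of 0.16; in the slow list it was 4 of 15 and 0 lower, with a median of 0.15. In the cardiac list 4 of 15 were higher and 0 lower, with a median of 0.18. By smallest p, the first fast genes were Actn3, the fast fibre actinin (0.91 ± 0.19), Myl1 and Jsrp1, a protein of the calcium release complex (0.60 ± 0.14). On the slow side they were Myoz2 (0.51 ± 0.12) and Ankrd2 (0.37 ± 0.12), proteins of the Z-disc and of stretched muscle, and the calcium buffer Casq2 (0.91 ± 0.26). Beside Actc1 the first cardiac genes by p were Smpx, a small muscle protein (0.25 ± 0.09), and Gata4, a heart transcription factor (0.27 ± 0.11). Many genes of these 3 lists averaged below the median gene, 2.95, in both groups, Myoz2 and Smpx among them. Without detection calls such values may be background, so close counts do not show that the programmes moved alike. The lists share some genes with the filament lists.

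Among 22 measured regulators known to act on troponin and other muscle genes, 5 were higher and 1 lower at an unadjusted limma p under 0.05, with a median of 0.09, against 5.72% higher and 5.14% lower and a median of 0.03 over all genes. The 1 lower gene of 22 was Nfatc1 (-0.26 ± 0.09), a count close to that share. Of the TEAD factors, Tead1 (-0.13 ± 0.12) and Tead4 (-0.06 ± 0.1) did not pass. Myog, which encodes myogenin, was at 7.73, 6.22 and 7.71 in Htt siRNA arrays and at 4.53, 3.97 and 5.11 in scramble arrays, a difference of 2.68 ± 0.44 (limma, adjusted p = 0.169). As for the mean of the troponin genes, though not for each of them, replicate 2 was the lowest array of each group. Eya4, a transcription cofactor of muscle precursors, differed by 0.59 ± 0.17 and Mef2a by 0.42 ± 0.13.

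Markers of other cells were read beside these values, where the share over all genes was 5.72% higher and 5.14% lower. Of 9 measured fibroblast markers, 3 were higher (Dcn, Postn and Col3a1) and 1 lower (Pdgfra) at an unadjusted limma p under 0.05, and their mean was 4.15 to 4.27 in Htt siRNA arrays and 3.73 to 3.94 in scramble arrays. Of 10 smooth muscle markers, 4 were higher and 0 lower, with a mean of 5.22 to 5.37 against 5.10 to 5.12; these were Acta2, Actg2, Tagln and Cnn1, while Myh11, the defining smooth muscle myosin, averaged 3.35 in Htt siRNA arrays and 3.22 in scramble arrays. Of 10 endothelial markers 0 passed in either direction (mean 2.27 to 2.37 against 2.19 to 2.24), of 9 adipocyte markers 1 was higher (3.05 to 3.16 against 3.00 to 3.12), and of 9 macrophage markers 1 was higher and 2 lower (2.74 to 2.77 against 2.69 to 2.78). Of 10 myoblast markers, 4 were higher and 0 lower. Among fibroblast markers, Col3a1 averaged 9.39 in Htt siRNA arrays and 8.99 in scramble arrays, Dcn 7.22 and 5.53, Postn 5.36 and 4.32, and Pdgfra 4.25 and 4.52, in the same order of groups. The other 5 measured fibroblast markers (Thy1, Dpt, Lum, Pi16 and Tcf21) averaged between 1.83 and 2.72 in both groups, below the median gene. The part of these markers in the troponin differences was not tested.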

How the data were processed

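Total RNA of 6 C2C12 samples, 3 per group, was measured on 1 Affymetrix array each. The authors deposited log2 expression values for 41345 probe sets, made with RMA and the affy package per the submitters' processing notes, without versions; the array's genome build is not given in the sources used here. Values ran from 0.84 to 12.12 with array medians of 2.59 to 2.67. Of the probe sets, 23521 had 1 symbol in the platform annotation, 1814 had several and 16010 were not listed. Among those with 1 symbol, the brightest over the 6 arrays stood for each of 22180 genes, with no filter on dim genes. Groups came from the sample titles. Differences were fitted with limma 3.58.1 (lmFit, eBayes; R 4.3.3) with group as the only term, two-sided, and adjusted by Benjamini-Hochberg over all genes at 0.05. The fit was tested on simulated data with independent noise in each array, so effects shared by arrays were not part of that test. Figures used Python 3.11.15 and matplotlib 3.10.9. The number of arrays limits precision.

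The members and lists were chosen with earlier results of these data known. Genes named were the 8 members, Htt, up to 3 genes with the smallest p per list and the 3 nearest profiles per member with a log2 difference of at least 1. Des, Pax7, the other markers named, the tropomyosin genes, Nfatc1, Tead1 and Tead4 were picked with their values known, as were the cell division and stress lists. Promoters and gene order came from RefSeq on GRCm38.p6. Alternatives left out each array, used the replicate number as a block, averaged probe sets, kept genes above the median level, repeated quantile normalization, centred arrays, weighted arrays or used a variance trend with a robust prior. Deviations of same-numbered arrays correlated across genes with r = 0.35, 0.364 and 0.006 for replicates 1, 2 and 3. Replicates 1 and 2 thus deviated partly together. The titles state no pairing, so the main fit did not treat the numbers as pairs.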

Additional observations from a re-analysis of the deposited data

How the results depend on the processing

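All 7 troponin genes with higher values kept a positive difference under each of the 13 alternatives. With the replicate block, averaged probe sets, genes above the median level or the variance trend, their differences equal those of the main fit by design. In the 5 genes without overlap, leaving out 1 array could not turn the sign. The number with an unadjusted limma p under 0.05 and a higher value was 5 to 7 without 1 array. It was 7 under each other alternative, with 0 lower throughout. The median of the 8 log2 differences ran from 0.65 to 1.00 without 1 array and from 0.75 to 0.85 otherwise. Tnni3 ran from -0.09 to 0.06 without 1 array, with 0.03 without Htt siRNA replicate 3, 0.06 without scramble replicate 1 and 0.00 with array weights. Troponin genes called after adjustment over all genes numbered 0 to 5 without 1 array, the 5 coming without Htt siRNA replicate 2, and 3 with the replicate number as a block (Tnnt3, adjusted p = 0.03, Tnni2, 0.0262, and Tnnc2, 0.0106, in limma, against 0.185% of all genes upwards); over all alternatives the adjusted p of Tnnt3 ran from 0.00778 to 0.627. Of all genes, limma called 0 to 540 without 1 array (540 when Htt siRNA replicate 2 and 1 when scramble replicate 1 was left out), 98 with the replicate block, 3 above the median level, 3 with repeated quantile normalization, 3 with arrays centred on their medians, 1 with array weights and 4 with the variance trend and robust prior. Apart from the arrays or genes left out, the cause was not tested. Same-numbered arrays deviated partly together for replicates 1 and 2 and not for replicate 3. No pairing is stated in the titles, so the block result is given only as an alternative. Signal near the median gene limits what can be said of Tnnt1 and Tnni3.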
